A study of Mus musculus with 3 samples.

Results

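The replication-dependent histone genes were followed across 3 droplet single-cell RNA libraries of mouse blood. Members were the genes whose symbol starts with Hist1h, Hist2h, Hist3h or Hist4h and that held at least 20 unique molecular identifiers (UMIs, 1 per captured RNA molecule) over all barcodes. Of 31053 genes in the files, 67 carried such a symbol and 59 were members: 5 linker histone H1 genes, 14 H2A, 16 H2B, 11 H3 and 13 H4. Just inside the minimum stood Hist2h3c2 with 20 UMIs and Hist1h4f with 22, and just outside it Hist1h2ao with 18 and Hist2h2aa2 with 7. All 59 members had at least 1 UMI in the kept cells of each library.

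The blood came from C57BL/6J mice, and each group was 1 library. The Sham library was labelled as sham for 12 h, the CLP library as CMC-treated with CLP for 12 h, and the HDCA+CLP library as HDCA-treated with CLP for 12 h. The labels spell out none of the abbreviations. CLP is taken to be caecal ligation and puncture, which lets gut contents into the abdomen, CMC to be carboxymethylcellulose, a common vehicle, and HDCA to be hyodeoxycholic acid, a bile acid. No CMC is named for the Sham mice, and neither the number, sex nor age of the animals behind a library is given in the sources used here. With 1 library per group no difference between groups could be tested. Each interval below is an exact 95% Poisson interval of a sum of UMIs or an exact binomial interval of a ratio of 2 such sums, and covers counting error only. CLP is a side of both treatment comparisons, so they share its counts.

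After filters 6496 Sham, 9853 CLP and 10849 HDCA+CLP cells were kept, with 38094690, 74067863 and 80137309 UMIs and medians of 5212.5, 6502 and 7083 UMIs per cell. Lineages were set by marker UMIs: neutrophils by S100a8 and S100a9, B cells by Cd79a, Cd79b and Ms4a1, T cells by Cd3d, Cd3e, Cd3g and Trac, NK cells by Ncr1, Klrb1c and Klra8, and monocytes by Csf1r, Ms4a6c and F13a1. Although the labels call the cells peripheral blood mononuclear cells, neutrophils made up 231, 4511 and 8240 of the kept cells in Sham, CLP and HDCA+CLP, while B cells numbered 2666, 284 and 278. T cells numbered 2982, 3044 and 1385, NK cells 264, 983 and 495, and monocytes 277, 698 and 277. Of markers that the gates did not use, all 7 for B cells, all 9 for T cells, all 10 for neutrophils, 6 of 7 for NK cells and 7 to 9 of 9 for monocytes were highest in their own lineage in each library, and none was at 0. Cells with at least 3 UMIs summed over Mki67, Top2a, Birc5, Cdk1 and Pclaf are called cycling, and all others are called other cells. Libraries shared 17 to 34 cell barcodes in pairs.

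Replication-dependent histones package newly made DNA. H2A, H2B, H3 and H4 form the core of the nucleosome, and H1 binds the linker DNA between nucleosomes. Their genes lie in clusters, are transcribed mostly in S phase, and give mRNAs that end in a conserved stem-loop in place of a poly(A) tail. Stem-loop binding protein (Slbp) holds that stem-loop, and the mRNA is degraded when replication ends. Some members also make polyadenylated mRNA, which is the form that an oligo(dT) library captures, so levels below are of captured molecules and may not compare between members. Levels are UMIs per 1000000 UMIs (CPM) summed over the cells named. A 3′ library counts 1 UMI per molecule whatever its length.

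The stem-loop was read from the annotated transcripts (GENCODE M21, GRCm38). It is shown because members with an annotated transcript that runs past it differed in these libraries from members whose transcript ends there. Each line gives 5 bases, the 16 bases of the stem-loop in capitals (a stem of 6 bases, a loop of 4, and the returning stem) and up to 5 bases after it, within the 3′ UTR:
Hist1h2ap: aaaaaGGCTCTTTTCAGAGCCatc
Hist1h3c: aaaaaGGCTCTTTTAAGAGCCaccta
Hist1h1e: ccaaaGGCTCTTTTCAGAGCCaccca
Hist1h1c: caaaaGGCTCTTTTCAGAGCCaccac
Hist1h4d: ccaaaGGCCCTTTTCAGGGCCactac
Hist3h2a: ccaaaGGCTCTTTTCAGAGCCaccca
The first lies at chr13:21833026-21833049 (minus strand) and is followed by 3 annotated bases. That of Hist1h3c, at chr13:23745042-23745067 (minus), is followed by 74 bases. The transcripts of the other 4 run on: Hist1h1e (chr13:23621777-23621802, minus) for 1153 bases, Hist1h1c (chr13:23739507-23739532, plus) for 840, Hist1h4d (chr13:23581945-23581970, plus) for 770 and Hist3h2a (chr11:58955167-58955192, plus) for 1643. A stem-loop of the searched form was present in 41 of 59 members (69.5%) and in 49 of 58725 other protein-coding transcripts (0.0834%). Of the 41, 24 had the form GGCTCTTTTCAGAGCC and 7 the form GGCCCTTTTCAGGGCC. For the other 18 members none was found, and the annotated model of 8 of those 18 holds the coding sequence alone.

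Copies of the family can share reads. Of the 90-base windows of the Hist1h2ap transcript, 92.4% also occur in Hist1h2ao, and 88.3% of those of Hist2h2aa1 occur in Hist2h2aa2, so counts of Hist1h2ap and Hist2h2aa1 are uncertain as to the copy. The share was 22.1% for Hist1h1e, with Hist1h2be as its nearest gene, 4.08% for Hist1h1c, with Hist1h1d, and 0% for Hist1h1b. No strand setting is given in the sources used here, so how overlapping genes on the other strand were counted was not checked.

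In all kept cells the family summed to 700.75 CPM in Sham (692 to 709), 524.46 CPM in CLP (519 to 530) and 343.22 CPM in HDCA+CLP (339 to 347). H1 genes held 38.9% of the family's UMIs over the 3 libraries and H2A genes 35.6%, followed by H2B with 10.6%, H4 with 9.06% and H3 with 5.90%. Hist1h2ap, an H2A gene (18935 UMIs), and the linker histone gene Hist1h1e (16831 UMIs) were the most captured members. The log2 ratio was -0.42 for CLP against Sham (-0.44 to -0.40), -0.61 for HDCA+CLP against CLP and -1.03 for HDCA+CLP against Sham. The median log2 ratio of all genes tested was -0.47, -0.41 and -0.92 for the same pairs. Scaling to the median gene instead of to total UMIs turned the first ratio to 0.05, so its direction rests on the scaling. The other two kept their direction at -0.26 and -0.18. The lineage mix above also moves with all 3.

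Of 56 members with at least 20 UMIs over CLP and Sham, 17 were at least 2-fold lower in CLP in all cells, where 28.8% of all genes were, and 8 were at least 2-fold higher, where 11.9% were. Both counts were near the share of all genes. Hist1h3c, an H3 gene, was 2.65 CPM in Sham, 9.55 CPM in CLP and 6.61 CPM in HDCA+CLP. The H1 gene Hist1h1b was 17.98 CPM in Sham, 41.7 CPM in CLP and 33.8 CPM in HDCA+CLP. In contrast Hist1h1d, another H1 gene, was 23.99 CPM in Sham, 7.66 CPM in CLP and 4.34 CPM in HDCA+CLP. These named members thus differed in direction, and the sums were split next by cycling cells.

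Outside cycling cells the family was lower in CLP than in Sham in all 5 lineages. Other cells together held 643.45 CPM in Sham, 239.84 CPM in CLP and 181.68 CPM in HDCA+CLP, a log2 ratio of -1.42 (-1.45 to -1.39) for CLP against Sham beside a median of -0.57 over all genes. By lineage, B cells held 853.53, 324.8 and 237.52 CPM in Sham, CLP and HDCA+CLP. T cells held 397.2, 259.63 and 205.25 CPM, the lowest level of any lineage in Sham. NK cells held 738.14, 372.71 and 309.94 CPM. Monocytes held 1282.5 CPM in Sham, the highest of any lineage, against 255.95 CPM in CLP and 262.49 CPM in HDCA+CLP. Neutrophils held 875.99, 202.14 and 169.94 CPM. The CLP against Sham log2 ratio was -2.33 in monocytes, -2.12 in neutrophils, -1.39 in B cells, -0.99 in NK cells and -0.61 in T cells, and every interval lay below 0. The median over all genes in the same cells was between -0.31 and -0.06. Each direction was kept under the 6 alternatives run for other cells, of which the scaling to the median gene gave the smallest ratio in neutrophils, -1.59.

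**Figure D1:**
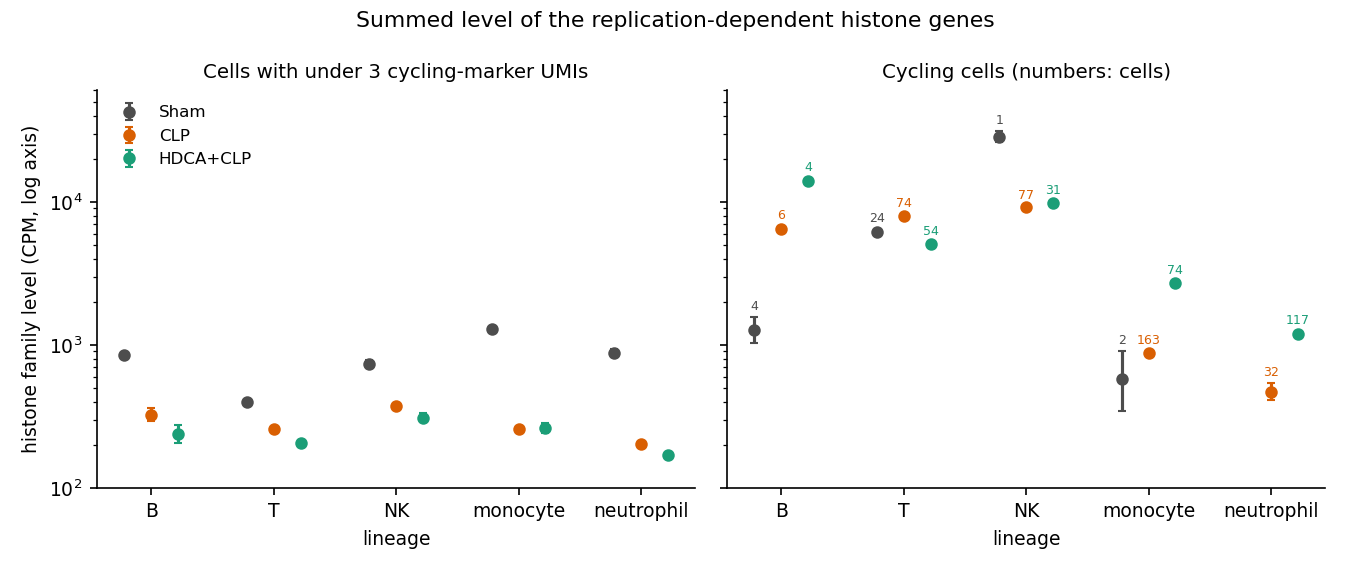
Summed level of the 59 members (CPM, log axis) by lineage in cells with under 3 cycling-marker UMIs (left) and in cycling cells (right, number of cells printed), with exact Poisson intervals where larger than the point. In other cells the Sham library (grey) was highest in all 5 lineages, from 397.2 CPM in T cells to 1282.5 CPM in monocytes; in cycling cells T and NK cells held 5048.5 CPM or more in CLP and HDCA+CLP.

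Malat1, a nuclear RNA, was lower in CLP than in Sham, as the family was, but by little in T cells. In other neutrophils it was 22911 CPM in Sham, 6491 CPM in CLP and 9047 CPM in HDCA+CLP. In monocytes it was 12490, 6513 and 9091 CPM, and in T cells 19772, 18295 and 27572 CPM. From CLP to HDCA+CLP Malat1 thus rose in each of these lineages. The family fell there in neutrophils and T cells and was near level in monocytes. In other neutrophils the 10 neutrophil markers that the gate did not use summed to 41596 CPM in Sham, 85335 CPM in CLP and 85958 CPM in HDCA+CLP. In other monocytes the 9 monocyte markers that the gate did not use summed to 25204, 8684.2 and 10231 CPM, the same 10 neutrophil markers to 551, 6969.9 and 8646.3 CPM, and the early myeloid genes to 41.7, 135 and 184 CPM. The part of these values in the histone result was not tested.

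Most members took part in the lower level. In other cells 41 of 48 members were at least 2-fold lower in CLP than in Sham, where 32.8% of all genes were, and none was at least 2-fold higher, where 10.8% were. In other monocytes 23 of 25 members were lower by that much (background 17.2%), in B cells 25 of 38 (15.3%), in neutrophils 12 of 19 (20.7%), in NK cells 8 of 21 (13.6%) and in T cells 10 of 38 (7.39%). Only in NK cells did any member reach 2-fold in the other direction, namely Hist1h3f and Hist1h3a of 21 (5.60% of all genes), and both intervals reached below 0. These members of NK cells rest on 2 and 4 UMIs in Sham, and are named here after their values were seen.

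All 5 classes were lower in CLP in other cells. With lineages pooled the log2 ratio was -2.13 for H3 (39.1 CPM in Sham and 8.92 CPM in CLP), -1.76 for H2A (181.65 and 53.7 CPM), -1.31 for H2B and for H4, and -1.23 for H1 (282.98 and 121 CPM). This pool held 231 neutrophils of 6465 cells in Sham and 4479 of 9495 in CLP, and H3, which was 6.87 and 2.01 CPM in neutrophils, had the largest difference in none of the 5 lineages. H2A had it in B cells (-1.68), NK cells (-1.40) and monocytes (-2.80), H4 in T cells (-0.99) and H2B in neutrophils (-3.49). In neutrophils H2B went from 280 CPM in Sham to 24.9 CPM in CLP and 33.5 CPM in HDCA+CLP, and its share of the family's UMIs was 32.0%, 12.3% and 19.7%. In monocytes H2A went from 494.53 to 71.1 CPM. In NK cells H3 did not differ beyond counting error, at 24.7 CPM in Sham and 24.8 CPM in CLP (log2 0.00, -0.58 to 0.63), while the other classes were lower.

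**Figure D2:**
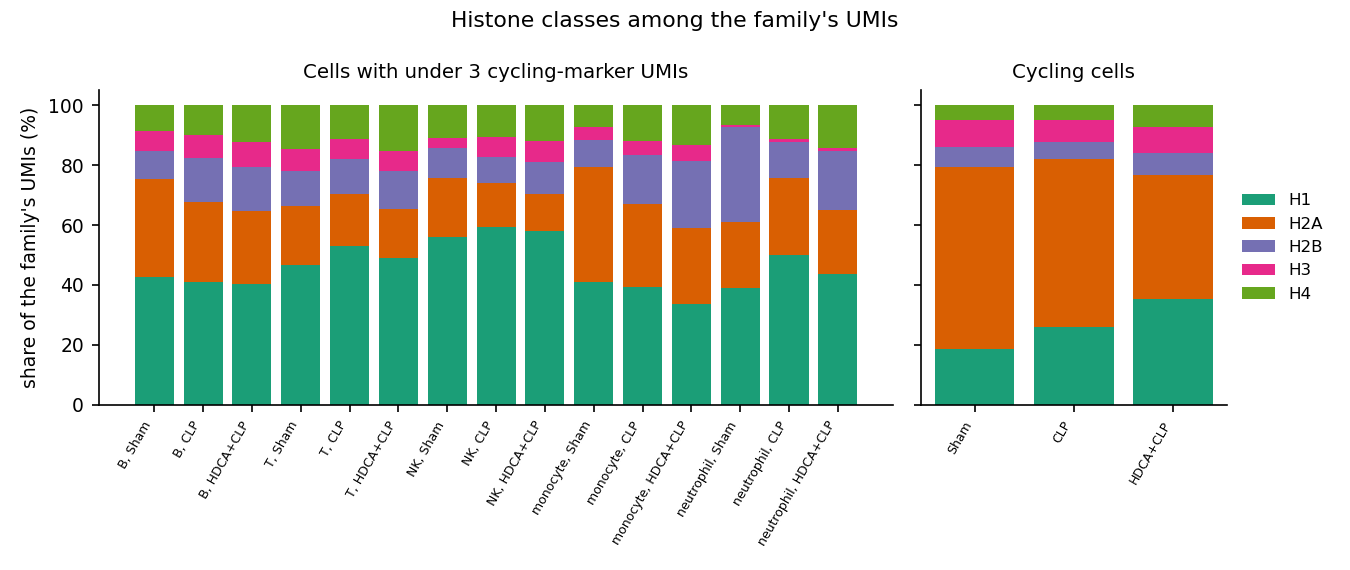
Share of the family's UMIs (%) held by each histone class, by lineage and library in cells with under 3 cycling-marker UMIs (left) and by library in cycling cells (right). H1 (green) held 33.5% to 59.4% in other cells of a lineage and 18.5% to 35.4% in cycling cells, where H2A (orange) held 41.2% to 61%.

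Among H1 genes, Hist1h1e was 217.53 CPM in Sham B cells, 70.5 CPM in CLP and 37.7 CPM in HDCA+CLP. In NK cells it was 285.86, 159.62 and 128.82 CPM, and in monocytes 270.37, 51.1 and 45.2 CPM. Sham was highest and HDCA+CLP lowest in all 5 lineages. Hist1h1c was highest in Sham neutrophils, at 225.87 CPM, against 40.4 CPM in CLP and 33.1 CPM in HDCA+CLP (CLP against Sham log2 -2.48, -2.67 to -2.29). In T cells Hist1h1c differed far less, at 73.0, 63.3 and 57.7 CPM. Hist1h1d had log2 ratios for CLP against Sham of -3.61 in monocytes (36.2 and 2.96 CPM), -2.73 in B cells, -2.20 in NK cells and -1.22 in T cells, and was lower in every lineage.

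Among H2A genes, Hist1h2ap was 251.06 CPM in Sham monocytes, 20.7 CPM in CLP and 11.95 CPM in HDCA+CLP, a CLP against Sham log2 ratio of -3.60 (-3.87 to -3.34). In B cells Hist1h2ap was 145.95, 32.7 and 20.1 CPM, in neutrophils 99.6, 19.97 and 8.93 CPM, in NK cells 79.1, 13.1 and 6.05 CPM and in T cells 26.7, 13.8 and 5.42 CPM. The order Sham, CLP, HDCA+CLP held in all 5 lineages. Hist1h2ae, which lies head to head with the H2B gene Hist1h2bg, was 96.9, 12.8 and 6.83 CPM in monocytes. Hist2h2aa1 showed how a sum over lineages can hide a difference: it was 11.5 CPM in Sham and 11.7 CPM in CLP over all other cells, but 60.1 CPM in Sham neutrophils, 15.5 CPM in CLP and 11.5 CPM in HDCA+CLP.

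Among H2B genes, Hist1h2bc stood apart in neutrophils, where it was 232.74 CPM in Sham from 271 UMIs, 10.7 CPM in CLP and 19.3 CPM in HDCA+CLP, a CLP against Sham log2 ratio of -4.44 (-4.67 to -4.21). In the other lineages Hist1h2bc in Sham was between 14.5 CPM in T cells and 57.6 CPM in monocytes. Of H4 genes, Hist1h4d was 23.7 CPM in Sham T cells, 10.9 CPM in CLP and 15.7 CPM in HDCA+CLP, but only 14.6, 13.2 and 14.2 CPM in neutrophils. Hist1h4i was 34.4 CPM in Sham neutrophils and 4.94 CPM in CLP. Of H3 genes, Hist1h3e was 35.9 CPM in Sham B cells, 14.6 CPM in CLP and 11.3 CPM in HDCA+CLP, and under 2 CPM in neutrophils of each library.

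**Figure D3:**
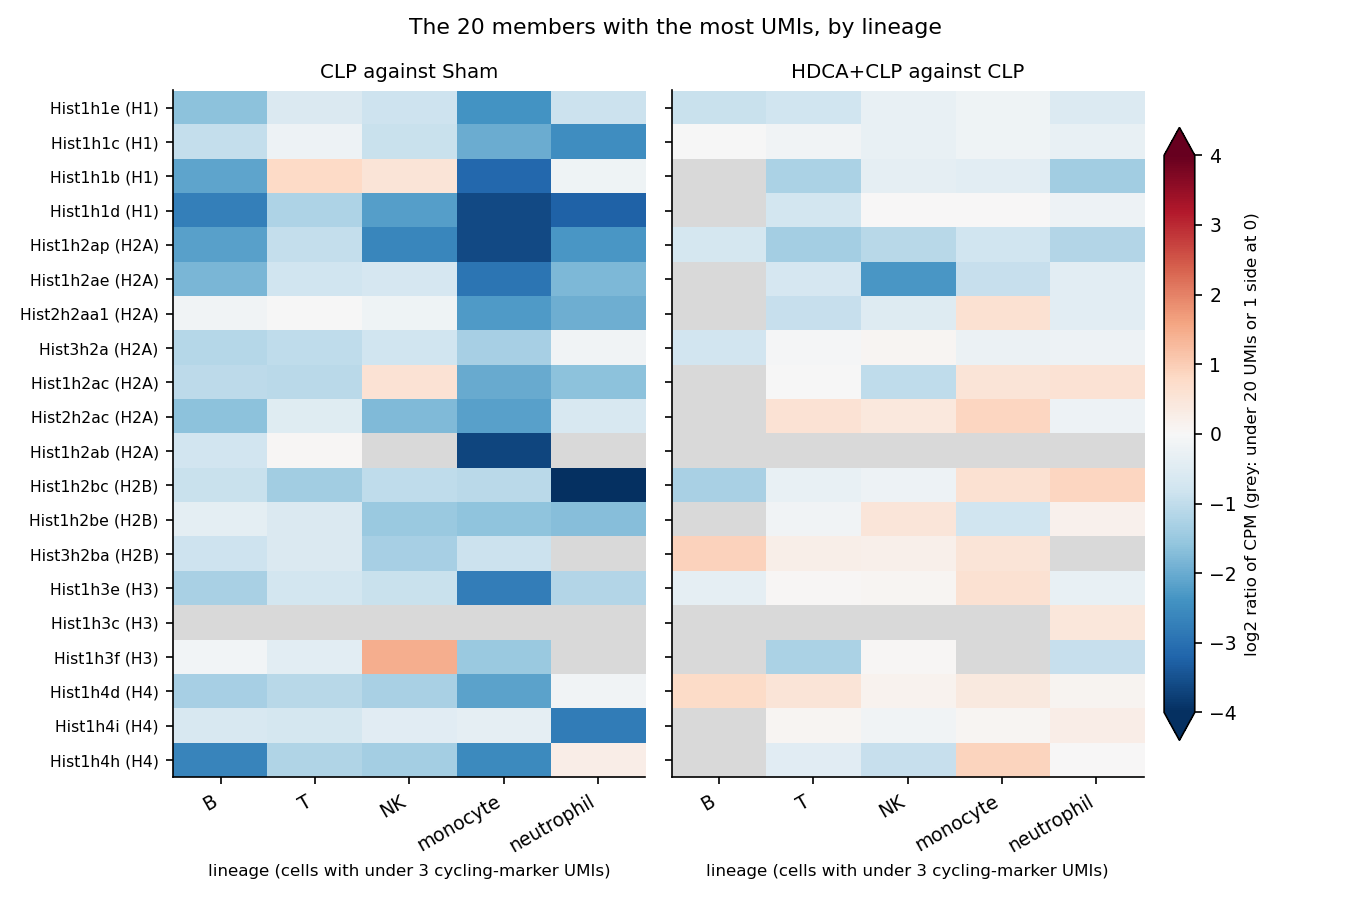
Log2 ratio of CPM in cells with under 3 cycling-marker UMIs for the 20 members with the most UMIs, by lineage (columns), for CLP against Sham (left) and HDCA+CLP against CLP (right); blue is lower, red is higher, and grey marks under 20 UMIs or 1 side at 0. The left panel is mostly blue, with Hist1h2bc in neutrophils at -4.44; the right panel is paler and mixed, with Hist1h2ap below 0 in all 5 lineages.

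HDCA+CLP against CLP gave smaller differences. In other cells the log2 ratio was -0.40 (-0.43 to -0.37) beside a median of -0.40 over all genes. By lineage it was -0.45 in B cells, -0.34 in T cells, -0.27 in NK cells and -0.25 in neutrophils. The monocyte ratio was 0.04 with an interval from -0.10 to 0.17, and without the 1 cell with the most family UMIs the HDCA+CLP level was 222 CPM, below the 255.95 CPM of CLP. Over all other cells 19 of 43 members were at least 2-fold lower (background 22.1%). Within lineages the counts were 1 of 8 in B cells (6.20%), 4 of 27 in T cells (2.29%), 5 of 21 in NK cells (1.74%), 0 of 17 in monocytes (3.09%) and 2 of 26 in neutrophils (2.12%).

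The members did not all move one way. Hist1h2ap was lower in HDCA+CLP in each lineage tested, with log2 ratios of -1.34 in T cells, -1.16 in neutrophils (-1.32 to -1), -1.11 in NK cells, -0.79 in monocytes and -0.70 in B cells, where the interval reached above 0. Hist1h1e was -0.79 in T cells, -0.56 in neutrophils and -0.31 in NK cells. Hist1h2bc was higher in neutrophils, from 10.7 to 19.3 CPM (0.85, 0.69 to 1.01), and in monocytes, from 27.0 to 41.4 CPM (0.62, 0.25 to 0.97). Hist1h4d was higher in T cells (0.53, 0.14 to 0.91), and Hist1h2ac in neutrophils, from 4.10 to 6.09 CPM (0.57). By class, H1 and H2A were below 0 in all 5 lineages, from -0.48 in B cells to -0.19 in monocytes for H1 and from -0.59 in B cells to -0.08 in monocytes for H2A, and both monocyte intervals reached above 0. H2B was higher in monocytes (0.48) and neutrophils (0.43), while its ratios in B cells (-0.45), T cells (-0.21) and NK cells (0.04) had intervals that spanned 0. The intervals of H3 and H4 spanned 0 in all 5 lineages. With lineages pooled H3 was -1.14 and H2B 0.20, in a pool whose neutrophils went from 4479 of 9495 to 8123 of 10567 cells.

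Cycling cells carried far more histone mRNA. Sham had 31, CLP 358 and HDCA+CLP 282 (0.477%, 3.63% and 2.6% of kept cells; 0.142%, 1.33% and 0.873% after each cell was thinned to 2000 UMIs). They held 5925.7, 3609.9 and 3368.5 CPM of the family, 9.21-fold, 15.1-fold and 18.5-fold the level in other cells of the same library. In Sham 1 T cell held 1244 of the 2449 UMIs, and without it the fold was 4.89. The only cycling NK cell of Sham held another 551, so the Sham values of cycling cells below rest largely on these cells. Cycling cells were deeper, with medians of 12597, 15494 and 11958 UMIs against 5201, 6334 and 6971, and the folds became 16.1, 35.2 and 34.8 when cells were thinned before gating. Thinning made the gate stricter, with 9, 126 and 92 cells past it, so these folds are of a smaller set of cells. Lineages differed between the 2 sets, since 32 of 358 cycling CLP cells were neutrophils and 4479 of 9495 other cells. CLP cycling cells held 58.1% of that library's family UMIs, and in HDCA+CLP they held 49.8%, against 9.17% in Sham.

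At least 2-fold higher in cycling than in other cells were 38 of 46 members in Sham (background 12.2%), 47 of 51 in CLP (26.1%) and 44 of 46 in HDCA+CLP (38.6%). The 2 members at least 2-fold lower in cycling cells of Sham, Hist2h2ab and Hist1h4m, had no UMI in the 31 cells, for which 3 counts would be 7.26 CPM. H2A genes gave 61%, 56.1% and 41.2% of the family's UMIs in cycling cells of Sham, CLP and HDCA+CLP, and 28.2%, 22.4% and 20.7% in other cells. With lineages pooled, H3 was 13.9-fold, 30-fold and 73.1-fold higher in cycling cells and H2A 19.9-fold, 37.7-fold and 36.9-fold, whereas H4 was 4.35-fold, 6.50-fold and 9.56-fold, and H1 3.86-fold, 7.73-fold and 14.8-fold. The order of H3 and H2A in HDCA+CLP was the other way in T and NK cells. H3 and H2A were 27.5-fold and 69.5-fold higher in T cells, and 52.9-fold and 104.75-fold in NK cells. In monocytes they were 14.4-fold and 14.9-fold, with overlapping intervals, and in neutrophils 52.6-fold and 12.2-fold.

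Members of the same class could differ widely. Hist1h3c was 0.29 CPM in other cells and 217.77 CPM in cycling cells of Sham, 0.37 and 109 CPM in CLP, and 0.30 and 124.8 CPM in HDCA+CLP. Over all other cells of a library it was at most 0.37 CPM. Of the H1 genes, Hist1h1b was 13.9 CPM in other and 391.98 CPM in cycling cells of Sham, 3.69 and 453.83 CPM in CLP, and 1.09 and 646.43 CPM in HDCA+CLP. Hist1h1e was 149.97 and 350.85 CPM, 66.1 and 310.12 CPM, and 42.2 and 345.37 CPM, so it differed more between libraries in other cells than in cycling cells. Hist1h1c was 94.4 and 165 CPM in Sham, 47.1 and 101 CPM in CLP, and 35.8 and 107 CPM in HDCA+CLP. Of the H2A genes, Hist1h2ap was 86.6 and 2211.5 CPM, 18.6 and 1490.7 CPM, and 8.78 and 862.32 CPM, while Hist3h2a was 24.3 and 24.2 CPM, 9.22 and 6.23 CPM, and 7.72 and 7.39 CPM. Hist3h2a was thus not higher in cycling cells in any library, and in CLP its log2 ratio was -0.56 (-1.07 to -0.10).

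The members kept no common proportion. Per 100 UMIs of Hist1h1e, Hist1h2ap had 630, 481 and 249.7 UMIs in cycling cells of Sham, CLP and HDCA+CLP, and in other cells 57.8, 28.1 and 20.8. For Hist1h1b the numbers were 112, 146 and 187 per 100 in cycling cells, and 9.26, 5.58 and 2.58 in other cells. The Sham cycling number of Hist1h2ap was 90.5 per 100 in B cells, 734 in T cells and 754 in the only NK cell.

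The annotated transcript end was set beside these values. For the 20 members whose transcript ends within 100 bases of the stem-loop, the summed level in cycling cells was 21.4-fold that in other cells in Sham, 45.7-fold in CLP and 51.2-fold in HDCA+CLP. For the 21 members with a longer annotated end it was 4.93-fold, 6.16-fold and 8.90-fold, and for the 18 with no stem-loop found 11.7-fold, 28.7-fold and 37.4-fold. The first group rests on Hist1h2ap, which held 18935 of its 28462 UMIs, and without it, a setting chosen after the values were seen, the folds were 14.7, 17.5 and 26.8, below those of the members with no stem-loop found in CLP and HDCA+CLP. The median log2 ratio of members with at least 50 UMIs was 2.90, 4.94 and 6.21 for the 16 with short ends, 1.96, 2.25 and 3.03 for the 19 with longer ends and 3.86, 4.63 and 6.23 for the 15 with no stem-loop found. The longer-ended members made up 67.9%, 73.5% and 73.0% of the family's level in other cells, and 36.4%, 30.1% and 35.1% in cycling cells. This group rests on 2 H1 genes, since Hist1h1e held 16831 and Hist1h1c 10610 of its 51006 UMIs. Their own log2 ratios were 1.23, 2.23 and 3.03 for Hist1h1e and 0.80, 1.11 and 1.57 for Hist1h1c. The folds of the group without them were not computed. The groups overlapped: Hist1h2ae, with 151 annotated bases after its stem-loop, was 26.0 and 878.32 CPM in other and cycling cells of Sham, and 4.90 and 322.43 CPM in CLP. Which ends the captured molecules had was not measured.

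**Figure D4:**
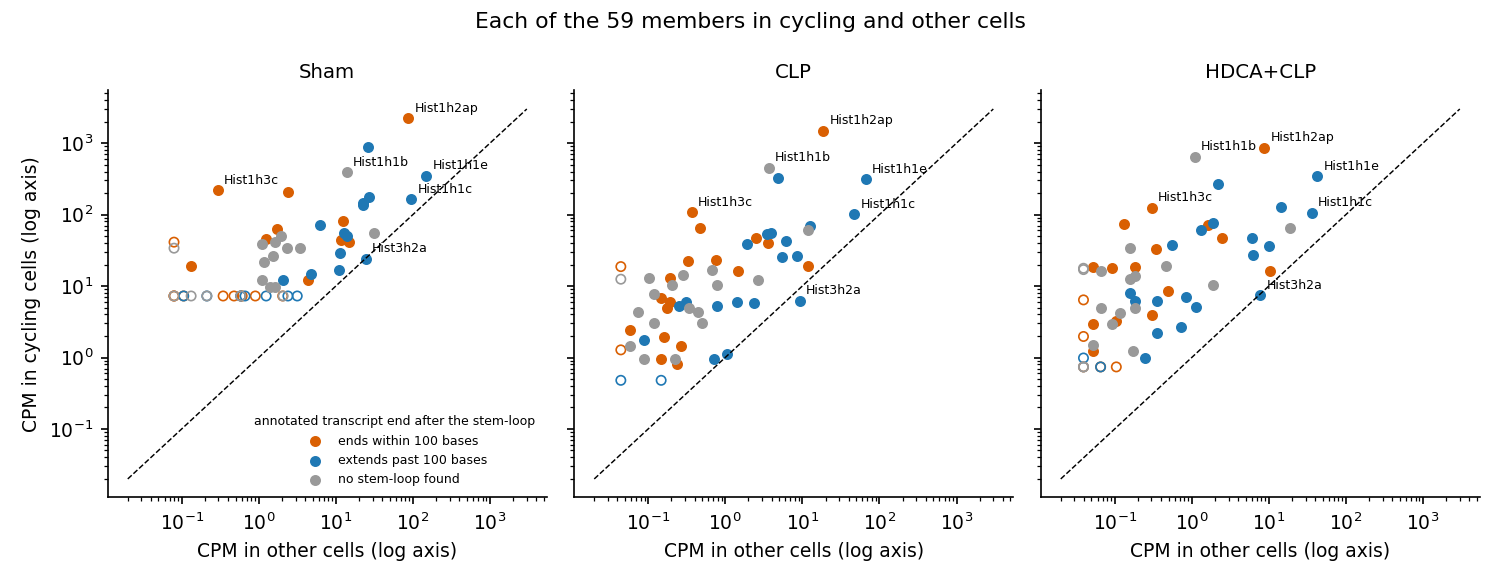
Each of the 59 members in other cells (x axis, CPM, log) and in cycling cells (y axis, CPM, log) of the 3 libraries, coloured by the annotated end after the stem-loop; the dashed line marks equal levels, and open points have under 3 UMIs on at least 1 side and are drawn at the level of 3 UMIs. Most points lie above the line; Hist3h2a lies on or below it in each library, and Hist1h3c stands far above it.

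By position, the 47 members on chromosome 13 held 91.7% of the family's UMIs and were 9.95-fold, 16.7-fold and 20.4-fold higher in cycling cells of Sham, CLP and HDCA+CLP. The 9 members on chromosome 3 were 5.50-fold, 5.02-fold and 8.47-fold higher, and the 2 on chromosome 11, Hist3h2a and Hist3h2ba, 1.16-fold, 1.04-fold and 1.42-fold.

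Promoters were read from RefSeq (GRCm38.p6), where 54 of 59 members were matched. Those of Hist1h1b and Hist1h1c are shown because these H1 genes differed most plainly in cycling dependence. Each is the 130 bases before the annotated start, with matches on either strand in capitals. The motifs were the CCAAT box (letters CCAAT), the TATA box (letters TATAAA), the octamer (letters ATTTGCAT) and the H1 box (letters AAACACA), and none of them overlap here:
Hist1h1b: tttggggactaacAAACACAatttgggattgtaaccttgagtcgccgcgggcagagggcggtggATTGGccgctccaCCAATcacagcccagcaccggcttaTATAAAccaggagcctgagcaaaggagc
Hist1h1c: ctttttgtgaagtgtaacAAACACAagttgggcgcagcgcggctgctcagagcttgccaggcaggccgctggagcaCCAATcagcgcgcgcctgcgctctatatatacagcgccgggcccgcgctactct
They lie at chr13:21780626-21780755 (minus strand) and chr13:23738677-23738806 (plus). Over windows of 300 bases, CCAAT was found in all 5 H1, 14 H2A, 14 H2B and 9 H3 members matched but in only 3 of 12 H4 members, against 37.8% of 26964 other genes. The H1 box was found in 4 of 5 H1 members and in 7.12% of other genes, the octamer in 5 of 14 H2A and 5 of 14 H2B members and in 1.71%, and TATAAA in 31 of 54 members and in 14.1%. The windows of 6 pairs of H2A and H2B members overlap by 252 to 279 of 300 bases. In cycling cells of Sham, CLP and HDCA+CLP, Hist1h2bn was 26.6, 10.2 and 14.0 CPM and its partner Hist1h2ak 21.8, 7.83 and 12.6 CPM, while Hist1h2bg was 12.1, 5.28 and 6.15 CPM and its partner Hist1h2ae 878.32, 322.43 and 269.55 CPM. Captured levels were thus close in some pairs and far apart in others.

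Within lineages, cycling T cells held 6196.2 CPM in Sham (24 cells), 7998.9 CPM in CLP (74 cells) and 5048.5 CPM in HDCA+CLP (54 cells). The Sham value was 2103.8 CPM without the 1 T cell named above. Cycling NK cells held 9148.6 CPM in CLP (77 cells) and 9774.3 CPM in HDCA+CLP (31 cells), 24.5-fold and 31.5-fold the other NK cells. Cycling monocytes held 875.97 CPM in CLP (163 cells) and 2720.8 CPM in HDCA+CLP (74 cells), 3.42-fold and 10.4-fold the other monocytes. Cycling neutrophils held 471.07 CPM in CLP (32 cells) and 1186.3 CPM in HDCA+CLP (117 cells), the latter 775.64 CPM without 1 cell that held 37.1% of the UMIs. They also held 1341.7 and 848 CPM of the monocyte gate genes, against 24.9 and 24.0 CPM in other neutrophils. Early myeloid genes were 755 and 354 CPM in them against 12.7 and 22.0 CPM. The neutrophil markers that the gate did not use were 58360 and 61635 CPM against 85335 and 85958 CPM. The part of these values in the histone level was not tested. No Sham neutrophil and 2 Sham monocytes passed the cycling gate.

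In CLP and HDCA+CLP, cells that passed the B-cell and the cycling gate went against their label. In CLP the 6 such cells held 308 CPM of the B-cell gate genes, against 2746.2 CPM in other B cells, together with 2173.3 CPM of plasma cell genes and 1137.9 CPM of early myeloid genes. In HDCA+CLP the 4 such cells held 6881.6 CPM of plasma cell genes. Their family levels were 6461.2 and 13999 CPM, the latter 9294.3 CPM without 1 cell that held 63.4% of the UMIs. The 4 Sham cells held 3807.7 CPM of the gate genes and 6323.2 CPM of the B-cell markers the gate did not use, near the 6670.5 CPM of other Sham B cells, and 1278.4 CPM of the family.

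Cycling monocytes stood below cycling T and NK cells. In CLP the family was 875.97 CPM in cycling monocytes and 8541 CPM in the cycling T and NK cells pooled (log2 -3.29, -3.34 to -3.23), and in HDCA+CLP 2720.8 and 6256.7 CPM (-1.20, -1.26 to -1.14). Of members tested, 38 of 43 in CLP were at least 2-fold lower in monocytes (background 18.0%) and 21 of 34 in HDCA+CLP (16.8%). The DNA replication genes fixed as a list were lower as well, at 977 against 2473.2 CPM in CLP and 1427.5 against 3126.4 CPM in HDCA+CLP, and the mitosis list less so, at 2387.4 against 3496 CPM and 2074.5 against 3056.9 CPM. Cycling monocytes also held 1165.6 and 1229 CPM of early myeloid genes, against 194.22 and 11.6 CPM in cycling T and NK cells. Hist1h2ab was 5.21 CPM in CLP cycling monocytes and 179.39 CPM in T and NK cells, whereas Hist1h2bc was 66 and 45.9 CPM. At 20 or more marker UMIs per cell, CLP monocytes held 1619.6 CPM (42 cells), T cells 14898 CPM (30 cells) and NK cells 14294 CPM (38 cells). In HDCA+CLP the monocytes then held 6419 CPM (23 cells), against 7824.3 CPM in T cells (26 cells) and 15252 CPM in NK cells (14 cells), and the median monocyte, at 4684.6 CPM, lay above the median T cell, at 3831.3 CPM.

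Histone mRNA was spread unevenly over cycling cells. At the gate of 3 marker UMIs the median cycling cell held 872 CPM among CLP T cells, 1461.4 CPM among NK cells, 460 CPM among monocytes and 389 CPM among neutrophils, below the summed levels. At 10 or more marker UMIs the median was 14100 CPM in CLP T cells (40 cells) and 12375 CPM in NK cells (52 cells), but 495 CPM in monocytes (91 cells). In HDCA+CLP it was then 1531.7 CPM in T cells (34 cells), 15426 CPM in NK cells (20 cells) and 605 CPM in monocytes (41 cells). A level of 2000 CPM, set after the values were seen, was passed by 5 Sham, 77 CLP and 50 HDCA+CLP cycling cells, which held 88.4%, 88.1% and 89.3% of the cycling family UMIs. In CLP they were 25 T, 36 NK, 9 monocyte, 3 B and 1 neutrophil cells, and 3 of no lineage. Among NK cells they were 36 of 77 in CLP and 15 of 31 in HDCA+CLP. The highest single cells reached 40635, 42683 and 31787 CPM. Few other cells passed 2000 CPM in CLP (55 of 9495) and HDCA+CLP (17 of 10567), and 326 of 6465 did in Sham, 193 of them B cells.

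**Figure D5:**
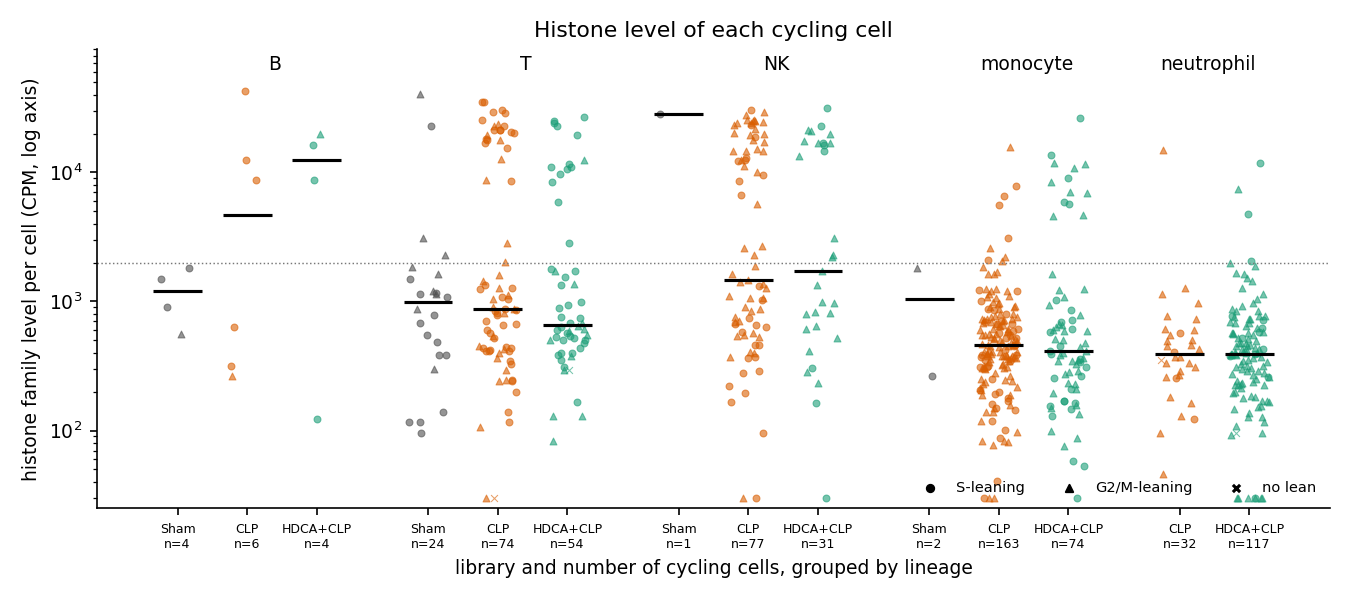
Histone family level of each cycling cell (CPM, log axis; cells under 30 CPM drawn at 30) by lineage and library, with circles for S-leaning, triangles for G2/M-leaning and crosses for cells of no lean, black bars at the medians and a dotted line at 2000 CPM. T and NK cells of CLP and HDCA+CLP spread to both sides of their medians and far above the dotted line. That line was also passed by 9 monocytes and 1 neutrophil of CLP, and by 13 monocytes and 4 neutrophils of HDCA+CLP.

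Cells above 2000 CPM had medians of 50, 44 and 51 cycling-marker UMIs in Sham, CLP and HDCA+CLP, against 4, 8 and 6 in the remaining cycling cells. The values that follow therefore also compare cells high and low in these markers. The DNA replication list summed to 2867.4 CPM in such cells of Sham, 3299.8 CPM in CLP and 3635.1 CPM in HDCA+CLP, against 1259.5, 998 and 927 CPM. Slbp, the stem-loop binding protein, was 217, 156 and 177 CPM against 99.9, 54.0 and 51.3 CPM. The mitosis list was also higher, at 6674.5, 4068.1 and 3501.1 CPM against 1659.2, 2336.3 and 1765.8 CPM. Median depth was 13772, 14076 and 17319 UMIs against 11498, 15830 and 10879.

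Cycling cells were then split by whether they leaned to the DNA replication (S) or the mitosis (G2/M) list, a range of a score with 5, 67 and 40 cells near the dividing line in Sham, CLP and HDCA+CLP. S-leaning cells held 4625.9 CPM in CLP (132 cells) against 2874.8 CPM in G2/M-leaning cells (223 cells), and 4965.3 CPM (94 cells) against 2182 CPM (186 cells) in HDCA+CLP, log2 ratios of 0.69 (0.65 to 0.72) and 1.19 (1.14 to 1.24). Sham went the other way, at 3804.9 against 10287 CPM (-1.43), and turned to 1.44 without its highest cell. In CLP, NK cells (6220.6 against 11266 CPM) and neutrophils (300 against 519 CPM) also went the other way. The median S-leaning and G2/M-leaning cell of CLP held 633 and 590 CPM, while 36 and 41 cells passed 2000 CPM.

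Between HDCA+CLP and CLP, the summed levels of cycling cells differed in opposite directions by lineage. T cells held 7998.9 CPM in CLP and 5048.5 CPM in HDCA+CLP. Monocytes instead went from 875.97 to 2720.8 CPM and neutrophils from 471.07 to 1186.3 CPM. Those rises rest on few cells. In HDCA+CLP, 13 of 74 monocytes passed 2000 CPM and held 88.5% of the monocytes' family UMIs, and 4 of 117 neutrophils held 65.9%. The median cell held 460 CPM in CLP and 411 CPM in HDCA+CLP among monocytes. It held 389 and 393 CPM among neutrophils, and 872 and 662 CPM among T cells. With lineages pooled the log2 ratio was -0.10 (-0.13 to -0.07), and the values that follow are pooled unless a lineage is named. Of 47 members, 2 were at least 2-fold higher, Hist1h1a and Hist1h2bf (background 3.02%), and 1 was lower, Hist2h2be (3.12%). Hist1h1a was 16.8 CPM in CLP and 33.97 CPM in HDCA+CLP (1.02, 0.64 to 1.40), while Hist1h2bf rests on 9 and 16 UMIs and Hist2h2be on 19 and 5. Hist1h4d was 69.7 and 127.51 CPM (0.87), Hist1h1b 453.83 and 646.43 CPM (0.51), and Hist1h2ap 1490.7 and 862.32 CPM (-0.79, -0.85 to -0.73). Within lineages Hist1h2ap went from 3575.4 to 1465.8 CPM in T cells and from 3732.7 to 2409.6 CPM in NK cells, but from 273 to 637 CPM in monocytes and from 96.7 to 250.49 CPM in neutrophils. By class H2A was lower (-0.55) and H1 (0.35), H2B (0.25), H3 (0.15) and H4 (0.49) were higher. The lineages of the cycling cells also differed, with more neutrophils and fewer monocytes in HDCA+CLP, as counted above.

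Genes that work with the family were read from fixed lists, with the same backgrounds as the members. Most replication-independent histone variants give mRNAs that are polyadenylated throughout the cell cycle. Their list also held H2afx, whose gene gives stem-loop mRNA too, and Cenpa, which is in the mitosis list as well. At least 2-fold higher in cycling cells were 5 of 9 genes of this list in Sham, 8 of 10 in CLP and 8 of 10 in HDCA+CLP (12.2%, 26.1% and 38.6% of all genes). H2afz, an H2A variant, was 450.59 CPM in other and 1838.9 CPM in cycling cells of Sham, 515.28 and 2365.5 CPM in CLP, and 326.91 and 2025.4 CPM in HDCA+CLP. H3f3a, which encodes H3.3, was 2128.2 and 1681.6 CPM, 1876.4 and 1888.4 CPM, and 2013.6 and 1720.9 CPM, with no log2 ratio above 0.01. Within CLP T cells alone, H3f3a was 945.59 CPM in other and 1243.7 CPM in cycling cells (log2 0.40), so the pooled value also carries the lineage mix. In other cells 2 of 10 variants were at least 2-fold higher in CLP than in Sham and 3 lower, beside 10.8% and 32.8% of all genes, and H3f3a differed by a log2 of -0.18.

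The list of histone mRNA 3′ end processing and turnover also held Npat, Hinfp and Pou2f1, which act in transcription. Of its genes, 1 of 16 in Sham, 3 of 16 in CLP and 9 of 16 in HDCA+CLP were at least 2-fold higher in cycling cells. In Sham and CLP these are smaller shares than the 12.2% and 26.1% of all genes, and in HDCA+CLP the share of all genes was 38.6%. Slbp was 57.6 CPM in other and 123 CPM in cycling cells of Sham, 38.7 and 75.8 CPM in CLP, and 28.7 and 82.2 CPM in HDCA+CLP. In other cells 4 of 17 genes of this list were at least 2-fold lower in CLP than in Sham and none higher, a smaller share than the 32.8% of all genes that were lower. Histone chaperones, which hand histones to DNA, were higher in cycling cells for 4, 10 and 12 of 15 genes. Asf1b, one of them, was 4.27 and 60.5 CPM in Sham, 1.39 and 43.5 CPM in CLP, and 0.64 and 43.3 CPM in HDCA+CLP. The DNA replication list was higher in cycling cells for 29 of 31, 33 of 33 and 33 of 33 genes, and in other cells 17 of 33 of its genes were at least 2-fold lower in CLP than in Sham, and 3 higher, beside the same 32.8% and 10.8% of all genes.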

How the data were processed

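Droplet libraries (10x Genomics 3′ kit v3, per the labels' protocols) were deposited as raw UMI counts per gene and barcode. The submitters' processing notes name Cell Ranger 5.0.1, Seurat 4.0.6, R 4.0.3 and mm39, while the stem-loops and promoters used here are on GRCm38. No further normalization of these counts by the authors is recorded in the sources used here. Barcodes with at least 500 UMIs, 200 genes and at most 10% mitochondrial UMIs were kept. Called doublets (395, 987 and 1174, from simulated doublets among 60 neighbours on 30 components) were left out. Sums of UMIs were scaled to 1000000 UMIs. A call is a CPM ratio of at least 2 among genes with at least 20 UMIs over both sides. The ratio and its interval were run on simulated counts drawn from the Poisson model that the interval itself assumes. That run checks the calculation only, and not UMIs gathered in few cells. Named members are the 12 with the most UMIs, the 3 highest and 3 lowest per comparison with at least 50 UMIs by the bound nearest 0, and the leading member of each class. Other members named were chosen after their values were seen. Alternatives were doublets kept, a stricter mitochondrial limit, means over cells, another scaling, other member minima, thinned cells, and other cycling and neutrophil gates. Members and lists were chosen with earlier results of these data known. Python 3.11.15, NumPy 2.4.6, SciPy 1.17.1, pandas 2.3.3, scikit-learn 1.9.0 and matplotlib 3.10.9 were used.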

Additional observations from a re-analysis of the deposited data

Results flagged for a closer look

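Hist1h1b, an H1 gene, differed between lineages in the direction of its CLP against Sham ratio outside cycling cells. Its log2 ratio was 0.81 in T cells (0.32 to 1.31), from 3.09 CPM in Sham to 5.41 CPM in CLP, -2.12 in B cells (-3.58 to -0.98), from 22.4 CPM to 5.16 CPM on 6 UMIs, and -3.15 in monocytes (-3.64 to -2.69), from 61.4 to 6.90 CPM. The same libraries gave opposite directions, and the difference between lineages was not tested. Scaling to the median gene shifts these ratios by at most 0.26, which turns none of them. In HDCA+CLP the T-cell level was 2.27 CPM, below that of Sham.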

How the results depend on the processing

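No paired analysis was possible because each group held 1 library. Log2 ratios of the family are given in the order CLP against Sham, HDCA+CLP against CLP and HDCA+CLP against Sham (all cells), then cycling against other cells in Sham, CLP and HDCA+CLP, then S-leaning against G2/M-leaning cells, and only where they moved beyond counting error. With called doublets kept they were -0.32, -0.80 and -1.12, then 3.13, 4.06 and 4.07, then 0.74 in CLP. With at most 5% mitochondrial UMIs they were -0.45, -0.67 and -1.12, then 3.48 in Sham and 4.16 in HDCA+CLP, then 0.58 in CLP and 1.24 in HDCA+CLP. As means over cells they were -0.78, -0.68 and -1.46, then 2.46, 3.81 and 3.78, then -0.64 in Sham and 1.40 in HDCA+CLP. Under median-of-ratios scaling they were 0.055, reversed, -0.26 and -0.18, then 2.87, 3.43 and 3.54. This scaling moved the median of all genes by -0.47, -0.36 and -0.85 in the all-cell pairs. Without Hist1h2ap they were -0.63 for CLP against Sham and -0.39 for HDCA+CLP against CLP, then 2.74, 3.26 and 3.86, then -1.58, 0.48 and 1.09. With cells thinned to 2000 UMIs they were -0.79 for CLP against Sham and -1.42 for HDCA+CLP against Sham, then 4.01, 5.14 and 5.12. With cycling set at 5 or more marker UMIs the cycling ratios were 3.82, 4.13 and 4.53, and the S-leaning ratio was -1.09 in Sham and 0.88 in CLP. Without the cycling cell with the most family UMIs of each library, an alternative chosen after seeing the data, they were -0.37 for CLP against Sham and -0.64 for HDCA+CLP against CLP, then 2.29, 3.88 and 4.12, then 1.44 in Sham, reversed, 0.63 in CLP and 1.47 in HDCA+CLP. Minima of 200 UMIs or of none for members moved none of these. The cause of each shift was not tested. In other cells of a lineage, CLP against Sham kept its direction in all 6 alternatives for each of the 5 lineages, and HDCA+CLP against CLP did so except in monocytes, where 4 of 6 did (-0.03 to 0.15). Depth limits the rarer members: strata such as Sham cycling cells hold few cells, and a ratio within its interval of 0 was not detectable here.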
